A study of Mus musculus with 14 samples.

Results

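The blood-brain barrier set is 10 genes that encode junction proteins and transporters of the endothelial cells lining brain vessels. Its members are Cldn5, Ocln, Tjp1, Lsr, Cdh5, Slc2a1, Mfsd2a, Slco1c1, Abcb1a and Abcg2. They were chosen by name, and each was found as the row of the hippocampal count table whose Ensembl identifier carries that symbol in GENCODE M21. All 10 were found among 55536 Ensembl genes and all 10 were tested, since each had far more than the required 10 counts over the 14 libraries. The libraries came from the hippocampus of mice at 10 months of age, perfused with cold PBS before dissection. MRL mice (n = 4) are B6.MRL-Faslpr/J, a lupus-prone strain that carries the lpr mutation of the death receptor gene Fas. MRL-IRAK4-KD mice (n = 4) are MRL mice crossed with IRAK4-kinase-dead mice, in which the kinase that relays Toll-like receptor and interleukin-1 receptor signals is inactive. IRAK4-KD mice (n = 3) carry that mutation without lpr by their label, and C57BL/6 mice (n = 3), labelled C57BL6/J, carry neither. All 4 strains are on the C57BL/6 background, the mutations are present in every cell of the animal, and the labels give no sex. The titles number 1 library per animal, so the spread below is that between libraries, and nothing states whether litters or preparations were shared.

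The blood-brain barrier is formed by endothelial cells that are sealed to each other by tight and adherens junctions and that carry out little transcytosis. Nutrients enter through dedicated carriers, and many drugs and metabolites are pumped back to the blood by efflux transporters of the ATP-binding cassette family. Its properties are induced and kept by Wnt/beta-catenin signals from the surrounding brain, with pericytes and astrocyte endfeet around the vessel. Some of the genes are not restricted to vessels, since Tjp1 and Ocln are also made in other brain cells and Slco1c1 also in astrocytes.

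All 12 genes that mark hippocampal neurons were detected in every group, with a summed level of 906 to 2456 CPM. 1 library stood apart over all genes and another went against its label. On the first principal component of log2 CPM (49.4% of the variance), MRL-IRAK4-KD replicate 4 had a score of 113, against -20.1 to 4.68 in the other 13 libraries, and its summed choroid plexus markers were the highest of all at 7906 CPM. Every library with lpr by its label held 0 counts of the transcript Fas-201 (1481 bases) and between 268 and 964 of Fas-204 (1625 bases). IRAK4-KD replicates 1 and 2 held 360 and 386 of Fas-201, and 5 and 7 of Fas-204. The library labelled IRAK4-KD replicate 3 had 0 of Fas-201 and 514 of Fas-204, the pattern of the lpr libraries. It also had the highest summed thalamus and striatum markers, 529 CPM against 137 to 265 in the others. Irak4 itself was at 2.16 ± 0.30 CPM (SD) in the 3 C57BL/6 and 2.27 ± 0.25 in the 3 IRAK4-KD mice, and at 2.38 ± 0.26 in the 4 MRL and 2.01 ± 0.33 in the 4 MRL-IRAK4-KD mice. A count does not show a mutation of the kinase. Total counts ran from 279941472 to 572398312 per library. Values are CPM, counts scaled to a fixed library total after TMM normalization, and fold changes come from edgeR's quasi-likelihood test with p adjusted over 38070 genes.

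Claudin-5, the main sealing claudin of brain endothelial tight junctions, is encoded by Cldn5 (ENSMUSG00000041378.2, mm10 chr16:18776847-18778262, plus strand). Its promoter is shown because this gene had the largest difference between groups of the set. RefSeq (GRCm38.p6) places a window of 250 bases directly upstream of the GENCODE start, of which 59.6% were G or C. Capitals mark a GC box, CCGCCC, the reverse complement of GGGCGG.
Cldn5 promoter, chr16:18776597-18776846, plus strand: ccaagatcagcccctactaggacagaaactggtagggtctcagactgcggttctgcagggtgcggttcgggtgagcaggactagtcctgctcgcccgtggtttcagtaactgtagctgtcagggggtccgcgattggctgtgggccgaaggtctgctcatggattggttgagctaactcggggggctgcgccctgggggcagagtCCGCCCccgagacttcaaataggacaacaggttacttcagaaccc

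Cldn5 was lowest in the IRAK4-KD group. The 4 MRL libraries had 16.8, 16.7, 12.5 and 24.0 CPM of Cldn5, and the 4 MRL-IRAK4-KD libraries had 12.9, 14.4, 10.3 and 19.1 CPM. The 3 C57BL/6 libraries had 13.7, 12.7 and 12.1 CPM, and the 3 IRAK4-KD libraries had 7.48, 5.87 and 4.41 CPM. Every IRAK4-KD library therefore lay below every other library of the study, while the MRL and MRL-IRAK4-KD groups overlapped each other and C57BL/6. In edgeR the log2 fold change of Cldn5 in IRAK4-KD against C57BL/6 mice was -1.12 ± 0.26 (SE), a level 0.461 times that of C57BL/6, with an adjusted p of 0.271. MRL-IRAK4-KD mice had 2.39 times the Cldn5 level of IRAK4-KD mice (log2 fold change 1.26 ± 0.24 (SE), edgeR adjusted p = 0.112). Neither passed the threshold of 0.05. Over 25 alternative settings the first ran from -1.32 to -0.94 with adjusted p between 8.21e-05 and 1, and the second from 0.91 to 1.46 with adjusted p between 0.000176 and 0.675. Each passed in 5 of the 25, among them DESeq2 (adjusted p = 0.0102 and 0.000284). Without the library labelled IRAK4-KD replicate 3, which had the lowest Cldn5 of all, the log2 fold changes in edgeR were -0.94 and 1.08. Neither passed there (edgeR adjusted p = 0.650 for the second). Every setting in which either passed kept that library, and DESeq2 was not run without it. In bulk tissue, fewer endothelial cells and less RNA per endothelial cell cannot be told apart, and this holds for every member.

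The other tight junction members differed less. Occludin, a tetraspan junction protein encoded by Ocln (ENSMUSG00000021638.12, chr13:100496507-100552718, minus strand), ranged between 9.51 and 13.7 CPM in MRL libraries and between 5.45 and 12.5 CPM in MRL-IRAK4-KD libraries. C57BL/6 libraries had 7.96 to 10.3 CPM of Ocln and IRAK4-KD libraries 9.03 to 10.5 CPM. The groups overlapped in all 4 comparisons. ZO-1, the scaffold that ties claudins and occludin to actin and is encoded by Tjp1 (ENSMUSG00000030516.14, chr7:65296165-65527781, minus strand), had 81.3 to 108 CPM in MRL libraries. In MRL-IRAK4-KD libraries Tjp1 had 73.9, 85.8, 76.6 and, in replicate 4, 21.7 CPM. In C57BL/6 libraries there were 72.7 to 93.3 CPM of Tjp1 and in IRAK4-KD libraries 73.5 to 84.3 CPM, so that only MRL-IRAK4-KD replicate 4 lay apart. The Tjp1 log2 fold change of MRL against the MRL-IRAK4-KD group in edgeR was 0.53 ± 0.29 (SE, adjusted p = 0.457) with that library and 0.25 (adjusted p = 0.547) without it.

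Angulin-1, the lipolysis-stimulated lipoprotein receptor that recruits tricellulin to the corners where 3 cells meet, is encoded by Lsr (ENSMUSG00000001247.16, chr7:30957770-30973464, minus strand). It had 4.78, 4.24, 4.40 and 8.51 CPM in MRL libraries and 3.85, 3.58, 2.69 and 4.16 CPM in MRL-IRAK4-KD libraries. In C57BL/6 libraries there were 2.90, 3.22 and 2.80 CPM of Lsr, and IRAK4-KD libraries had 2.66, 2.54 and 1.57 CPM. MRL stood above the other groups in every library and IRAK4-KD below them, with no overlap in any of the 4 comparisons. The Lsr level in MRL mice was 1.84 times that in C57BL/6 mice (log2 fold change 0.88 ± 0.26 (SE), edgeR adjusted p = 0.655) and 1.54 times that in MRL-IRAK4-KD mice (0.62 ± 0.24, adjusted p = 0.437). MRL replicate 4 carried part of this, and without it the log2 fold changes of Lsr were 0.60 and 0.35. Counts of Lsr are also uncertain for another reason, described with its antisense gene further on.

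VE-cadherin, the endothelial adherens junction protein encoded by Cdh5 (ENSMUSG00000031871.9, chr8:104101625-104144511, plus strand), had 10.7, 8.85, 10.5 and 15.9 CPM in MRL libraries. MRL-IRAK4-KD libraries had 6.81, 7.66, 6.77 and 1.24 CPM of Cdh5, C57BL/6 libraries 6.55, 7.90 and 5.55 CPM, and IRAK4-KD libraries 5.62, 4.22 and 3.26 CPM. All MRL libraries lay above all libraries of the 3 other groups. The log2 fold change of Cdh5 in MRL against MRL-IRAK4-KD mice was 1.03 ± 0.41 (SE, edgeR adjusted p = 0.437), a level 2.04 times as high, and it was 0.70 (adjusted p = 0.330) with MRL-IRAK4-KD replicate 4 left out, whose value was far below those of the other 3. Against C57BL/6 mice it was 0.78 ± 0.44 (edgeR adjusted p = 0.931).

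The glucose transporter GLUT1, which carries blood glucose into the brain, is encoded by Slc2a1 (ENSMUSG00000028645.11, chr4:119108711-119137983, plus strand). Its promoter is shown because the gene had the smallest edgeR p of the set in the comparison of MRL with C57BL/6 mice. The 216 bases upstream of the GENCODE start held 63.9% G or C, and a GC box is again in capitals.
Slc2a1 promoter, chr4:119108495-119108710, plus strand: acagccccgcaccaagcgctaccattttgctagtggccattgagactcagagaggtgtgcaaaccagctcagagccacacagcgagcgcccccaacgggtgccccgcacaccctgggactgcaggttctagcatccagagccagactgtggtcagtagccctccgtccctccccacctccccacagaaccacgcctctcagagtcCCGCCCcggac

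Slc2a1 was high in MRL mice. The 4 MRL libraries had 72.8, 79.9, 68.0 and 94.2 CPM of Slc2a1, and the 4 MRL-IRAK4-KD libraries had 60.9, 49.4, 46.1 and 67.9 CPM. C57BL/6 libraries had 40.3, 42.5 and 43.2 CPM and IRAK4-KD libraries 39.2, 45.0 and 37.2 CPM. MRL libraries lay above all others, though the lowest of them was close to MRL-IRAK4-KD replicate 4, and MRL-IRAK4-KD libraries lay above all libraries without lpr by label. The Slc2a1 level in MRL mice was 1.88 times that in C57BL/6 mice (log2 fold change 0.91 ± 0.15 (SE), edgeR adjusted p = 0.188) and 1.40 times that in MRL-IRAK4-KD mice (0.49 ± 0.13, adjusted p = 0.344). MRL-IRAK4-KD mice had 1.39 times the level of IRAK4-KD mice (0.47 ± 0.14, edgeR adjusted p = 0.516), and C57BL/6 and IRAK4-KD mice differed by -0.05 ± 0.15. The difference between MRL and C57BL/6 mice kept its direction in all 25 alternative settings, from 0.80 to 0.98, with adjusted p between 2.45e-09 and 0.666. It passed the threshold in 6 of them, including DESeq2 (adjusted p = 1.85e-05), limma-voom (adjusted p = 0.0191) and, with MRL-IRAK4-KD replicate 4 left out, edgeR (adjusted p = 0.0174). Without MRL replicate 4, which had the highest Slc2a1, the log2 fold change was 0.82 (edgeR adjusted p = 0.339).

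Mfsd2a, the carrier of lysophosphatidylcholine-bound docosahexaenoic acid that also restrains transcytosis, is encoded at chr4:122946850-122961188 (ENSMUSG00000028655.11, minus strand). MRL libraries had 14.02, 12.1, 11.3 and 15.98 CPM of Mfsd2a, and MRL-IRAK4-KD libraries had 16.4, 9.58, 9.11 and 21.8 CPM. C57BL/6 libraries had 8.69, 8.73 and 8.88 CPM and IRAK4-KD libraries 10.99, 12.1 and 9.66 CPM. C57BL/6 had the lowest values of the 14 libraries for this gene, and the MRL-IRAK4-KD group held both values near the C57BL/6 level and the highest value of all. Its log2 fold change in MRL against C57BL/6 mice was 0.61 ± 0.25 (SE, edgeR adjusted p = 0.895). MRL and MRL-IRAK4-KD mice differed by -0.09 ± 0.23 (edgeR adjusted p = 0.904), and by 0.20 once MRL-IRAK4-KD replicate 4 was left out.

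The thyroid hormone carrier OATP1C1 is encoded by Slco1c1 (ENSMUSG00000030235.17, chr6:141524368-141570177, plus strand). MRL libraries had 49.5, 46.1, 50.8 and 57.5 CPM of Slco1c1. MRL-IRAK4-KD libraries had 40.7, 39.1, 31.0 and 37.6 CPM, C57BL/6 libraries 36.9, 36.6 and 37.9 CPM, and IRAK4-KD libraries 30.7, 39.9 and 27.5 CPM. The 4 MRL libraries lay above the other 10 and the remaining 3 groups overlapped where they were compared. Slco1c1 was at 1.38 times the MRL-IRAK4-KD level (log2 fold change 0.46 ± 0.12 (SE), edgeR adjusted p = 0.335) and at 1.37 times the C57BL/6 level (0.46 ± 0.13, adjusted p = 0.640) in MRL mice. In DESeq2 the first of these passed the threshold (adjusted p = 0.0413), and over the 25 alternatives its adjusted p ran from 0.0332 to 0.643.

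P-glycoprotein, the broad-range efflux pump of brain capillaries, is encoded in the mouse brain mainly by Abcb1a (ENSMUSG00000040584.8, chr5:8660077-8748575, plus strand). MRL libraries had 25.2, 19.2, 20.7 and 34.9 CPM of Abcb1a and MRL-IRAK4-KD libraries 13.7, 18.7, 14.7 and 8.58 CPM. C57BL/6 libraries had 15.05, 15.7 and 10.8 CPM, and IRAK4-KD libraries had 8.70, 9.08 and 9.16 CPM. MRL libraries lay above all others, and IRAK4-KD libraries lay below all C57BL/6 libraries. Abcb1a was at 1.80 times the MRL-IRAK4-KD level (log2 fold change 0.84 ± 0.23 (SE), edgeR adjusted p = 0.338) and at 1.81 times the C57BL/6 level (0.85 ± 0.25, adjusted p = 0.641) in MRL mice, and at 0.649 times the C57BL/6 level in IRAK4-KD mice (-0.62 ± 0.26, adjusted p = 1). The first was 0.68 without MRL-IRAK4-KD replicate 4 (edgeR adjusted p = 0.320), the library with the lowest Abcb1a of its group. In DESeq2 with all libraries it passed (adjusted p = 0.0399), with a range of 0.0399 to 0.643 over 25 alternatives. Of the 100-base windows of its transcripts, 7.72% occur in its neighbours Abcb1b or Abcb4, so that a share of its counts could belong to those genes. The other 9 members shared none.

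The breast cancer resistance protein, a second efflux pump of capillaries, is encoded by Abcg2 (ENSMUSG00000029802.13, chr6:58584523-58695676, plus strand). MRL libraries had 20.7, 17.4, 17.2 and 25.03 CPM of Abcg2 and MRL-IRAK4-KD libraries 16.3, 15.7, 15.2 and 14.9 CPM. C57BL/6 libraries had 14.8, 17.5 and 13.6 CPM and IRAK4-KD libraries 11.4, 12.99 and 11.4 CPM. IRAK4-KD libraries lay below all others, and the MRL and C57BL/6 groups overlapped. Abcg2 was at 1.29 times the MRL-IRAK4-KD level in MRL mice (log2 fold change 0.37 ± 0.13 (SE), edgeR adjusted p = 0.424) and at 0.779 times the C57BL/6 level in IRAK4-KD mice (-0.36 ± 0.15, adjusted p = 1). Its differences were about as large in all 4 comparisons, from 0.36 to 0.39 in size on the log2 scale.

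**Figure D1:**
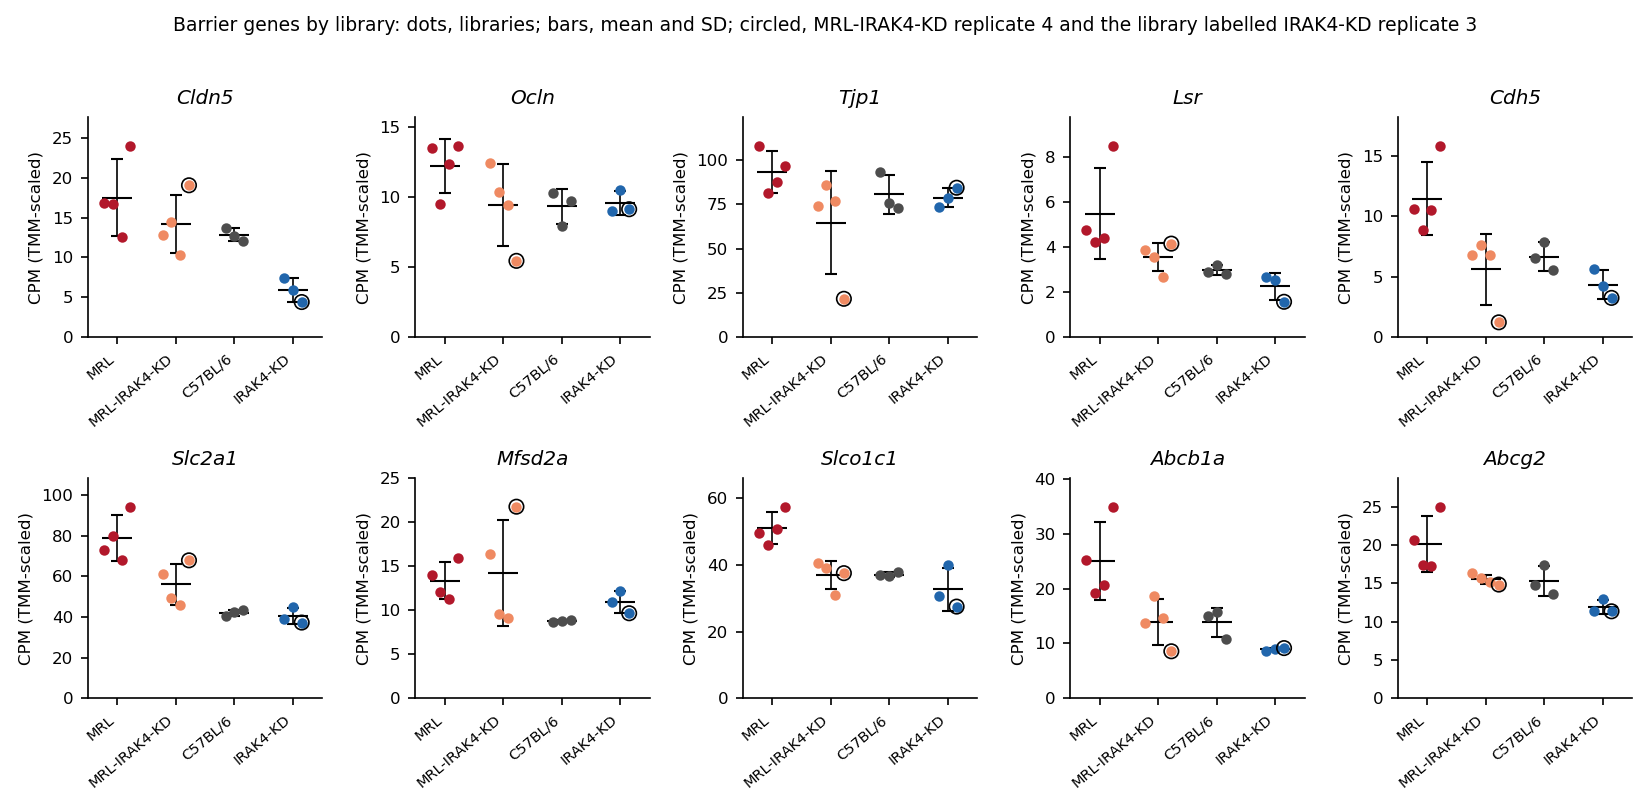
CPM of the 10 members (y axis of each panel, scaled by TMM) in each library by group, with bars for the mean and SD and with MRL-IRAK4-KD replicate 4 and the library labelled IRAK4-KD replicate 3 circled. Slc2a1 sat between 68.0 and 94.2 CPM in MRL libraries and at 67.9 CPM or less in the other 10, and the 3 IRAK4-KD libraries had the lowest Cldn5, between 4.41 and 7.48 CPM.

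Levels can be compared between genes only per length, as TPM, in which counts are divided by exon length before the library is scaled. In C57BL/6 hippocampus the mean TPM was 29.3 for Slc2a1 (28.0 to 30.2), 27.8 for Tjp1 (24.2 to 33.5), 25.9 for Slco1c1 (24.9 to 26.4) and 19.4 for Cldn5 (18.1 to 21.2). Tjp1 overlapped in range with both Slc2a1 and Slco1c1, so that its place was not set beyond the spread, while Cldn5 lay below all 3 in every library. Abcg2 (9.60 TPM, 7.47 to 13.2) and Mfsd2a (8.77 TPM, 8.66 to 8.85) formed the next step. Abcb1a (5.99 TPM), Ocln (5.19 TPM), Cdh5 (3.57 TPM) and Lsr (3.09 TPM) were lowest. Abcb1a and Ocln overlapped in range, and so did Cdh5 and Lsr, which lay below both. In MRL mice Slc2a1 was at 49.8 TPM, Slco1c1 at 33.5, Tjp1 at 29.9 and Cldn5 at 24.7 TPM.

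Setting MRL against MRL-IRAK4-KD mice asks what the kinase mutation does in lupus-prone animals. The mean of MRL libraries was higher for 9 of 10 members, the exception being Mfsd2a, and the median log2 fold change of the members was 0.47 against 0.0023 over all genes tested. None of the 10 passed an adjusted p of 0.05 in edgeR, as 0.0972% of all tested genes did, and 6 had an unadjusted p under 0.05 and were higher, against 5.14% of all tested genes. DESeq2 called 2 members, Slco1c1 and Abcb1a, and 1.05% of all genes, and limma-voom called 1, Slc2a1, and 0.609%. The groups did not overlap for 6 members, Lsr, Cdh5, Slc2a1, Slco1c1, Abcb1a and Abcg2, against 5.26% of all tested genes. For each of the 6 the 2-sided exact permutation test gave p = 0.0286, the smallest that 4 against 4 libraries allow. Groups without overlap always give the smallest p, here and in the other comparisons, so this test adds nothing to the count of such members. Without MRL-IRAK4-KD replicate 4, DESeq2 called 4 members, Cdh5, Slc2a1, Slco1c1 and Abcb1a, and 1.19% of all genes, an alternative added after values had been seen. In edgeR without that library the log2 fold change was 0.49 in place of 0.31 for Cldn5, 0.19 in place of 0.38 for Ocln and 0.60 in place of 0.49 for Slc2a1.

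The comparison of MRL with C57BL/6 mice asks what the lpr strain differs in from its background, and it uses the same MRL libraries. All 10 members had a higher mean in MRL mice, and their median log2 fold change was 0.53 against -0.0046 over all genes. None of the members passed the adjusted threshold in edgeR, where 0.0% of all genes did, and 6 had an unadjusted p under 0.05 and were higher, against 3.16% of all genes. DESeq2 called 1 member and 0.539% of all genes, limma-voom called 1 and 0.176%, and in both cases the member was Slc2a1. Lsr, Cdh5, Slc2a1, Mfsd2a, Slco1c1 and Abcb1a did not overlap between the groups, 6 of 10 against 9.63% of all genes, each with an exact permutation p of 0.0571, the smallest possible with 4 against 3. In DESeq2 without MRL-IRAK4-KD replicate 4, which is in neither group but enters the spread of the fit, these 6 members passed, beside 1.93% of all genes.

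Setting IRAK4-KD against C57BL/6 mice asks what the mutation does without lpr. Members were mostly lower in IRAK4-KD mice, where only Ocln and Mfsd2a had a higher fold change, and the median log2 fold change was -0.27 against -0.0079 over all genes. None passed the adjusted threshold in edgeR, as 0.147% of all genes did, and Cldn5, Abcb1a and Abcg2 had an unadjusted p under 0.05 and were lower, 3 of 10 against 2.13% of all genes. DESeq2 called 1 member, Cldn5, and 0.43% of all genes, and limma-voom called 0 members and 0.381%. Cldn5, Lsr, Abcb1a and Abcg2 lay lower in IRAK4-KD and Mfsd2a higher without overlap, 5 of 10 against 11.2% of all genes, each at an exact permutation p of 0.1, which is the smallest possible with 3 against 3. Leaving out the library labelled IRAK4-KD replicate 3 lowered the number at an unadjusted p under 0.05 from 3 to 1, and so did leaving out IRAK4-KD replicate 1 or C57BL/6 replicate 2. Without IRAK4-KD replicate 3 the log2 fold change was -0.19 in place of -0.40 for Lsr, -0.44 in place of -0.61 for Cdh5 and -0.07 in place of -0.18 for Slco1c1.

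The comparison of MRL-IRAK4-KD with IRAK4-KD mice asks what lpr adds when the kinase is inactive. The fold change was above 1 for 8 of 10 members, Ocln and Tjp1 being the exceptions, with a median log2 fold change of 0.38 against 0 over all genes. None passed the adjusted threshold in edgeR, as 0.0735% of all genes did, and Cldn5, Lsr, Slc2a1, Abcb1a and Abcg2 had an unadjusted p under 0.05 and were higher, 5 of 10 against 5.18% of all genes. DESeq2 called 1 member and 0.81% of all genes, limma-voom called 1 and 0.699%, and in both cases the member was Cldn5. The groups did not overlap for Cldn5, Lsr, Slc2a1 and Abcg2, 4 of 10 against 8.74% of all genes, each at an exact permutation p of 0.0571. The number at an unadjusted p under 0.05 was 3 without the library labelled IRAK4-KD replicate 3 and also 3 without IRAK4-KD replicate 1. Without MRL-IRAK4-KD replicate 4 the log2 fold change was 1.08 in place of 1.26 for Cldn5, 0.70 in place of 0.37 for Cdh5, 0.10 in place of 0.38 for Mfsd2a and 0.81 in place of 0.63 for Abcb1a. Without IRAK4-KD replicate 3 it was 0.46 in place of 0.66 for Lsr and 0.19 in place of 0.37 for Cdh5.

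Whether the mutation acts differently with and without lpr was tested as an interaction in edgeR. No member passed the adjusted threshold, as 0.00263% of all genes did, and DESeq2 and limma-voom called 0 members, beside 0.159% and 0.063% of all genes. At an unadjusted p under 0.05 there were 2 members, against 4.17% of all genes. Cldn5 had an interaction of -0.81 ± 0.33 (log2, SE, edgeR adjusted p = 0.914), since MRL exceeded MRL-IRAK4-KD mice by less than C57BL/6 exceeded IRAK4-KD mice. It was -0.63 without MRL-IRAK4-KD replicate 4 and -0.64 without the library labelled IRAK4-KD replicate 3. Slc2a1 had 0.44 ± 0.20 (edgeR adjusted p = 0.914), where MRL exceeded MRL-IRAK4-KD mice by 0.49 and IRAK4-KD differed from C57BL/6 mice by -0.05, and without the same libraries it was 0.55 and 0.49. Without C57BL/6 replicate 1 or without IRAK4-KD replicate 2, 0 members were under 0.05.

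**Figure D2:**
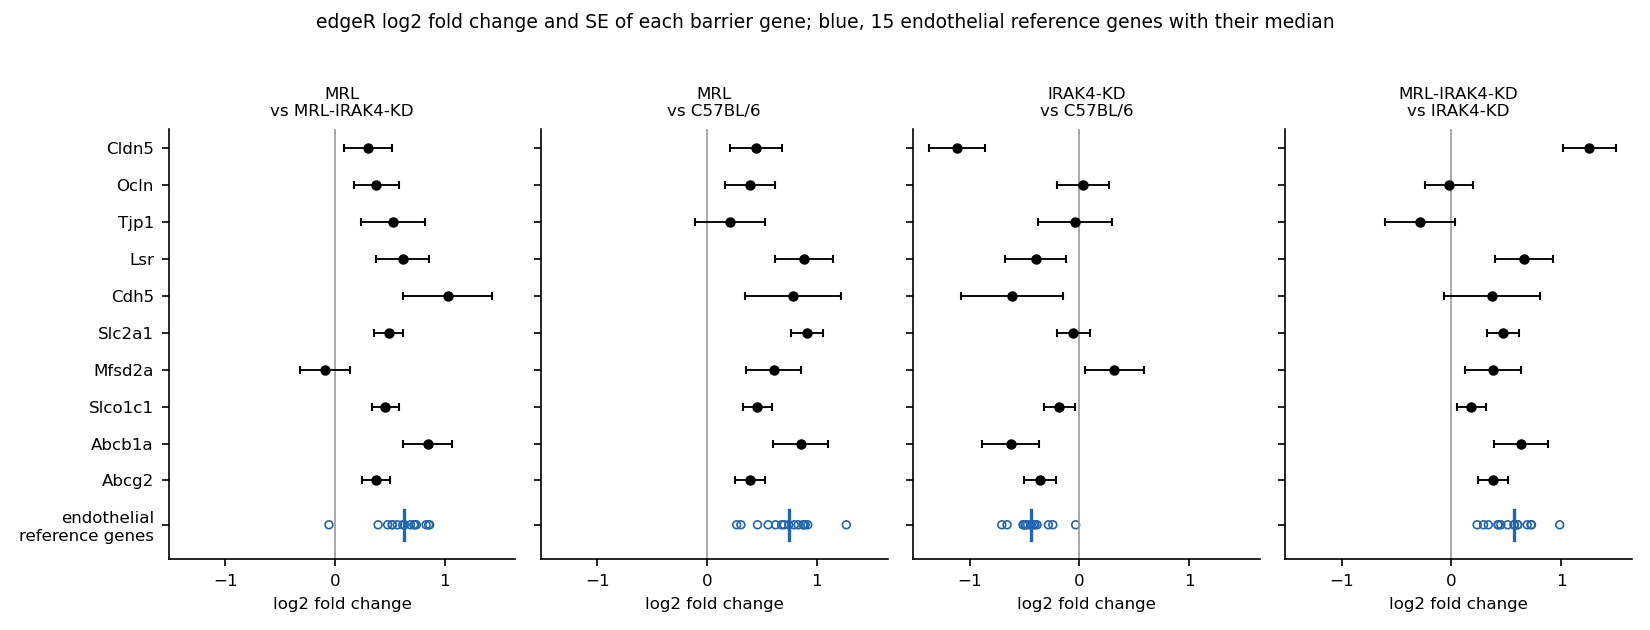
Log2 fold changes (x axis) with their standard errors from edgeR for the 10 members in each of the 4 comparisons, with the 15 endothelial reference genes and their median in blue. Members lay on both sides of the blue median in each panel, and Cldn5 was the member farthest from 0 in both comparisons with IRAK4-KD mice, at -1.12 and 1.26.

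Other endothelial genes differed between the groups as well. Counts below are at an unadjusted p under 0.05. In the same direction and order of comparisons, 5.14%, 3.16%, 2.13% and 5.18% of all tested genes reached it. The endothelial reference, a list of 15 genes that mark endothelial cells in general (Pecam1, Tek, Tie1, Kdr, Flt1, Emcn, Erg, Sox18, Eng, Ly6c1, Egfl7, Robo4, Esam, Cd34 and Ptprb), had 12 genes at an unadjusted p under 0.05 and higher in MRL than in MRL-IRAK4-KD mice, where the median of the list was 0.63 on the log2 scale. Against C57BL/6 mice 13 of the 15 were higher in MRL at that threshold, with a median of 0.75, 8 of 15 were lower in IRAK4-KD than in C57BL/6 mice, with a median of -0.44, and 12 of 15 were higher in MRL-IRAK4-KD than in IRAK4-KD mice, with a median of 0.57. None of the 15 passed the adjusted threshold in edgeR in any comparison. Their summed level was 131 to 145 CPM in IRAK4-KD, 172 to 184 in C57BL/6, 174 to 226 in MRL-IRAK4-KD and 251 to 406 in MRL libraries, with MRL replicate 4 the highest and no gene of the list at 0. MRL libraries were highest, MRL-IRAK4-KD and C57BL/6 libraries overlapped, and IRAK4-KD libraries were lowest. The means of Cldn5, Lsr, Cdh5, Slc2a1, Slco1c1, Abcb1a and Abcg2 had the same highest and lowest groups. The mean log2 level of the list was 0.60 higher in MRL than in MRL-IRAK4-KD mice (exact permutation p = 0.0286) and differed by -0.42 between IRAK4-KD and C57BL/6 mice (exact permutation p = 0.1). Without the library labelled IRAK4-KD replicate 3, 4 genes of the list in place of 8 were lower in IRAK4-KD than in C57BL/6 mice at an unadjusted p under 0.05, and 7 in place of 12 were higher in MRL-IRAK4-KD than in IRAK4-KD mice.

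The members were therefore also read relative to the mean log2 level of this list in the same library. Between the MRL and MRL-IRAK4-KD groups none of the 10 members then separated the groups, the mean was higher in MRL mice for 3, and the median difference was -0.12. On this scale 50.4% of all genes did not overlap between these groups, because a common shift was subtracted from each. Between MRL and C57BL/6 mice Cldn5 (-0.27), Tjp1 (-0.47) and Abcg2 (-0.30) were lower in MRL without overlap, 3 of 10 against 79.3% of all genes, and Slc2a1 and Lsr no longer separated the groups. On log2 CPM the means of Cldn5, Tjp1 and Abcg2 were higher in MRL mice, by 0.41, 0.21 and 0.38, and that of the list by 0.68. The part of cell number and of vessel content in the levels was not tested.

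On this scale Cldn5 and Mfsd2a had the largest differences of the members between IRAK4-KD and C57BL/6 mice, in opposite directions. Relative to the endothelial list the log2 level of Cldn5 was 0.27, -0.14 and -0.43 in IRAK4-KD libraries, 0.67, 0.58 and 0.59 in C57BL/6 libraries, 0.44, 0.48, 0.37 and 1.27 in MRL-IRAK4-KD libraries and 0.38, 0.42, 0.12 and 0.43 in MRL libraries. IRAK4-KD libraries lay below all C57BL/6 and MRL-IRAK4-KD libraries but overlapped the MRL group. The log2 difference of IRAK4-KD from C57BL/6 mice was -0.71 (exact permutation p = 0.1), and that of MRL-IRAK4-KD from IRAK4-KD mice was 0.74 (exact permutation p = 0.0571). Without the library labelled IRAK4-KD replicate 3 they were -0.55 and 0.57, and without MRL-IRAK4-KD replicate 4 the second was 0.53. Mfsd2a was at 0.82, 0.90 and 0.69 in IRAK4-KD and 0.01, 0.04 and 0.15 in C57BL/6 libraries, a difference of 0.73. On log2 CPM, Ocln, Tjp1 and Slc2a1 differed by only 0.04, -0.03 and -0.06 between IRAK4-KD and C57BL/6 mice, and the list by -0.42. Relative to the list, Ocln, Tjp1 and Slc2a1 were also higher in IRAK4-KD than in C57BL/6 libraries, by 0.46, 0.39 and 0.37. These 5 of 10 compare with 65.0% of all genes, and 3 of 10 (Cldn5, Ocln and Tjp1) did not overlap between MRL-IRAK4-KD and IRAK4-KD libraries, against 55.4% of all genes, so that separation on this scale was no more frequent among the members than over all genes. With Pecam1 alone as the reference, 0 members in place of 3 separated MRL from C57BL/6, against 67.2% of all genes, and 3 in place of 5 separated IRAK4-KD from C57BL/6, against 30.8%.

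**Figure D3:**
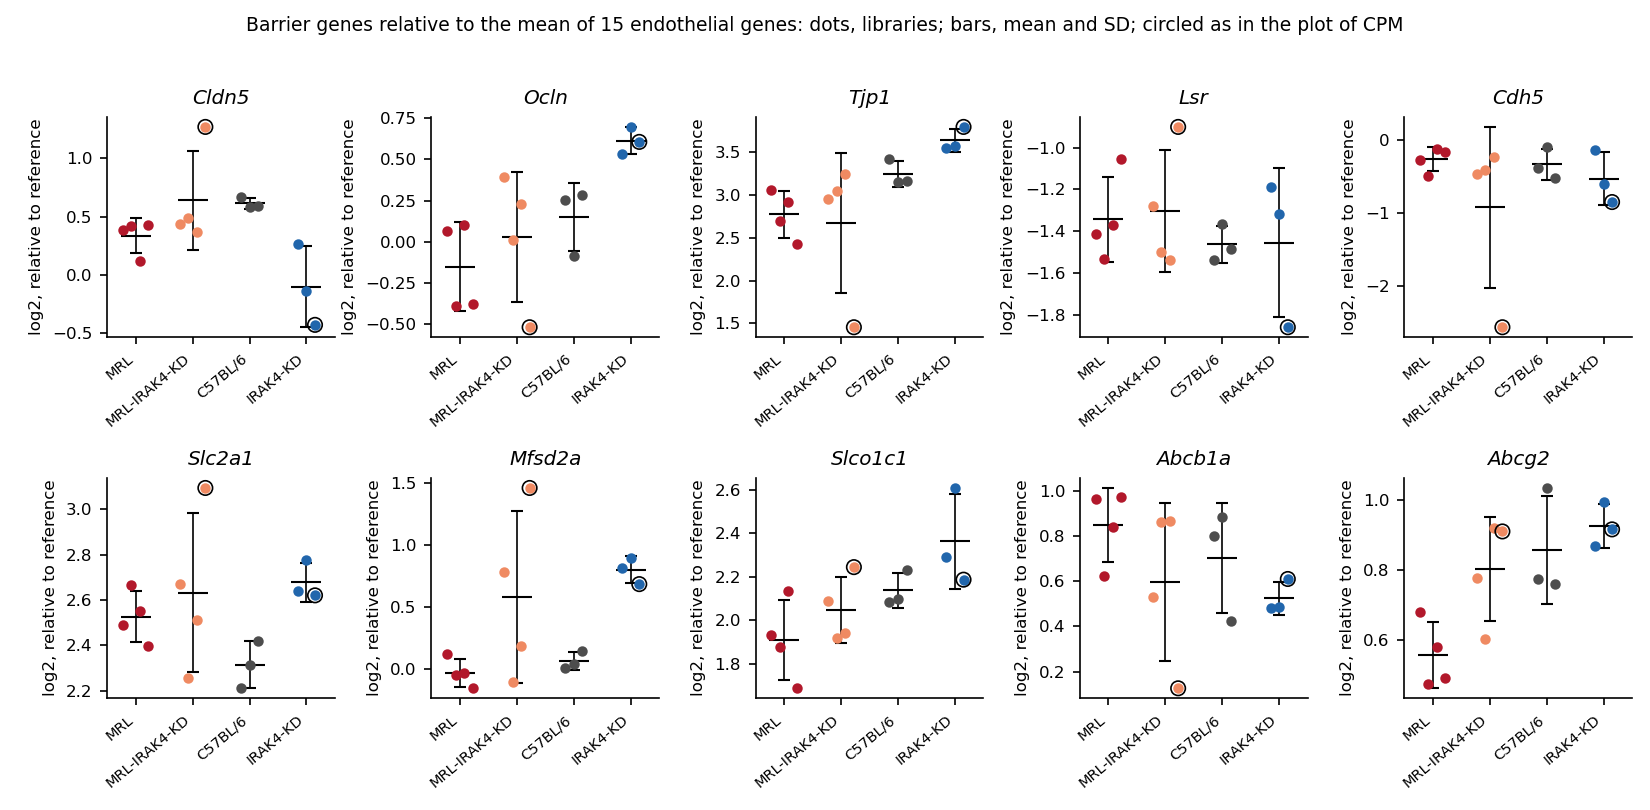
Log2 level of each member minus the mean log2 level of 15 endothelial genes in the same library (y axis), by group, with the libraries circled as in the plot of CPM. Cldn5 was between -0.43 and 0.27 in IRAK4-KD and between 0.58 and 0.67 in C57BL/6 libraries, while Mfsd2a was between 0.69 and 0.90 in IRAK4-KD and between 0.01 and 0.15 in C57BL/6 libraries.

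Further genes of the barrier were read from lists by role. Of 14 other junction genes, 5 were higher at an unadjusted p under 0.05 in MRL than in MRL-IRAK4-KD mice, and none passed the adjusted threshold. Among them were Esam, an endothelial adhesion molecule (log2 fold change 0.57), and Marveld2, which encodes tricellulin (0.45). Esam is also a gene of the endothelial reference, so these lists are not separate. Of 20 other transporters and receptors, 5 were higher, and Slco1a4, an organic anion carrier of brain endothelium, passed it (0.88 ± 0.15 (SE), edgeR adjusted p = 0.0434). Slco1a4 was at 44.6 ± 6.92 CPM (SD) in the 4 MRL mice, against 24.3 ± 4.27 in the 4 MRL-IRAK4-KD, 25.5 ± 2.37 in the 3 C57BL/6 and 18.1 ± 2.91 in the 3 IRAK4-KD mice. No gene of that list passed without MRL replicate 4 or without the library labelled IRAK4-KD replicate 3. Of 15 genes of Wnt signalling and endothelial fate, 6 were higher in MRL than in MRL-IRAK4-KD mice with an unadjusted p under 0.05, including the transcription factor genes Sox17 (0.89), Lef1 (0.87) and Foxf2 (0.81). Lef1 is also on the list of thalamus and striatum genes used below. Of 6 transcytosis genes, 3 were higher, the caveolar genes Cav1 (0.57) and Cav2 (0.60) and the membrane trafficking gene Ehd4 (0.29).

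The same lists gave equal or smaller counts in the other comparisons. At an unadjusted p under 0.05, 3.16% of all tested genes were higher in MRL than in C57BL/6 mice. In IRAK4-KD against C57BL/6 mice 2.13% were lower, and in MRL-IRAK4-KD against IRAK4-KD mice 5.18% were higher. Between MRL and C57BL/6 mice 5 junction, 5 transporter, 5 Wnt and 1 transcytosis genes were higher at an unadjusted p under 0.05, the largest being the amino acid carrier gene Slc38a5 (log2 fold change 1.49). Between IRAK4-KD and C57BL/6 mice 1 junction, 4 transporter and 2 Wnt genes were lower, among them the organic anion carrier genes Slc22a8 (-0.89) and Slco1a4 (-0.49) and the iron exporter gene Slc40a1 (-0.48). Between MRL-IRAK4-KD and IRAK4-KD mice 1 of 14 junction, 2 of 20 transporter, 1 of 15 Wnt and 1 of 6 transcytosis genes were higher. Counts this small cannot be told from the 5.18% over all genes. The transcytosis gene was Plvap (0.55), which marks fenestrated endothelium. Plvap was at 8.40 ± 2.98 CPM (SD) in the 4 MRL-IRAK4-KD and 5.72 ± 0.51 in the 3 IRAK4-KD mice. The first group holds replicate 4, the library with the most choroid plexus RNA, and its part in Plvap was not tested. No gene of these lists passed the adjusted threshold in edgeR in these comparisons.

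Markers of other cells were counted in the same way. At an unadjusted p under 0.05, 5.14% of all genes were higher and 6.23% lower in MRL than in MRL-IRAK4-KD mice. In MRL against C57BL/6 mice 3.16% were higher. In IRAK4-KD against C57BL/6 mice 1.66% were higher and 2.13% lower, and 5.18% were higher in MRL-IRAK4-KD than in IRAK4-KD mice. Among 12 pericyte and mural genes 3 were higher in MRL than in MRL-IRAK4-KD mice with an unadjusted p under 0.05, and Notch3 passed the adjusted threshold (log2 fold change 0.61 ± 0.10 (SE), edgeR adjusted p = 0.0371). No gene of the list passed without MRL replicate 4 or without the library labelled IRAK4-KD replicate 3. Among 12 astrocyte genes 0 were higher or lower in that comparison. Of 9 blood genes, 6 were higher in MRL than in MRL-IRAK4-KD and 8 than in C57BL/6 mice, and their summed level was 374, 150, 85.7 and 368 CPM in MRL libraries against 21.2 to 196 CPM in the other 10. MRL replicate 4, which had the highest value within its group for 9 of the 10 members, was thus also one of the 2 MRL libraries with the most blood RNA. Of 8 microglia genes, 2 were higher in MRL than in MRL-IRAK4-KD mice and 4 than in C57BL/6 mice. None of 13 choroid plexus genes passed in any of the 4 comparisons, at a summed level of 77.6 to 7906 CPM. Of 12 hippocampal neuron genes, 6 were lower in MRL than in MRL-IRAK4-KD mice. Their sum was 2456 CPM in MRL-IRAK4-KD replicate 4, 1193 to 1410 CPM in the rest of that group and 906 to 1417 CPM in MRL libraries. Of 12 thalamus and striatum genes, 5 were higher and 1 lower in IRAK4-KD than in C57BL/6 mice, with the library labelled IRAK4-KD replicate 3 far above the others. Of 10 pituitary genes, 3 were higher and 1, Tshb, was lower in MRL than in MRL-IRAK4-KD mice, and their sum was 87.6 CPM in MRL replicate 3 against 1.69 to 6.52 CPM elsewhere. Of 11 meningeal and fibroblast genes, 2 were lower in IRAK4-KD than in C57BL/6 mice, and of 10 oligodendrocyte genes, 6 were higher in MRL-IRAK4-KD than in IRAK4-KD mice. The part of these cells in the members' values was not tested. With MRL replicate 4 left out, 10 of the 15 endothelial reference genes were higher in MRL than in MRL-IRAK4-KD mice with an unadjusted p under 0.05.

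MRL-IRAK4-KD replicate 4 gave the extreme value of its group for 9 of the members, 4 times the highest and 5 times the lowest. The members with short transcripts were higher there and most of those with long transcripts were lower. The log2 ratio of this library to the mean of the other 3 was 0.94 for Mfsd2a, with a leading transcript of 2151 bases, and 0.61 for Cldn5, with 1416 bases. It was -2.42 for Cdh5 (3995 bases), -0.96 for Ocln (4052 bases), -0.85 for Abcb1a (4997 bases) and -1.85 for Tjp1 (7049 bases), but -0.08 for Abcg2 (5717 bases). Over all genes with at least 1 CPM the median of the same ratio was 0.64 below 1500 bases and -0.52 at 5000 bases or more. The concentration of this library was 13.48 nM in the sheet of the sequencing core, against 23.49 to 27.55 nM for the others, and the part of either in the members' values was not tested.

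**Figure D4:**
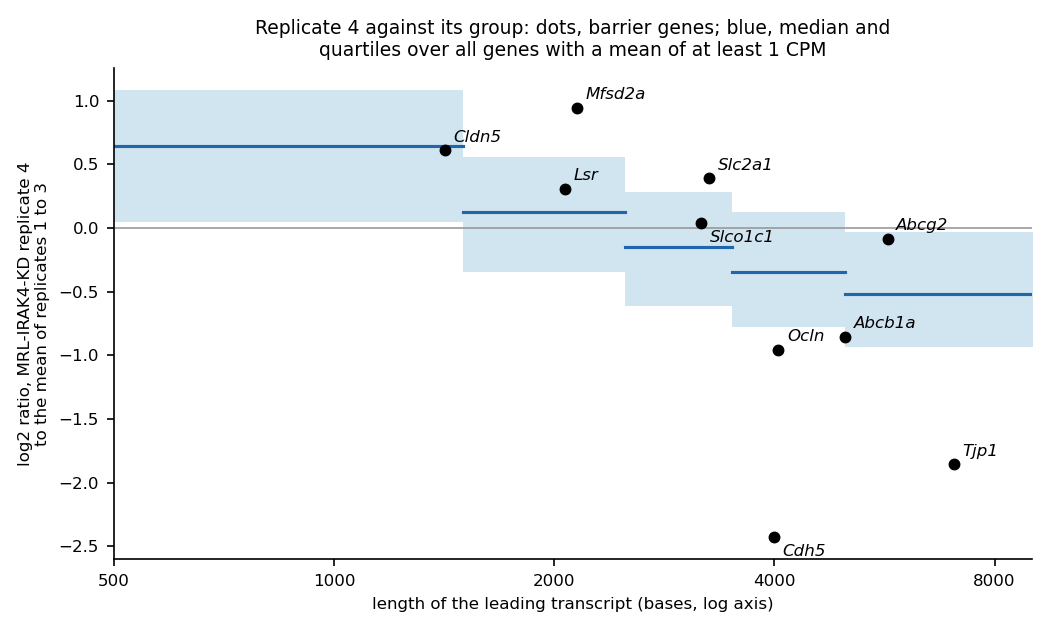
Log2 ratio of CPM in MRL-IRAK4-KD replicate 4 to the mean of the other 3 MRL-IRAK4-KD libraries (y axis) against the length of the leading transcript in bases (x axis, log scale), for each member, with the median and quartiles of all genes of at least 1 CPM in blue. Members ran from 0.94 for Mfsd2a to -2.42 for Cdh5, and the median of all genes ran from 0.64 for the shortest to -0.52 for the longest transcripts.

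The transcript counts, from the second table of the study, showed how each member's counts were divided. Cldn5-201 held 100% of the counts of Cldn5, and Mfsd2a-201, Abcb1a-201 and Slc2a1-201 held 99.5%, 99.0% and 94.0% of those of their genes. Tjp1 was divided between Tjp1-202 (64.9%) and Tjp1-201 (31.3%), and Abcg2 between Abcg2-201 (63.7%) and Abcg2-202 (31.6%). StringTie assigns reads that fit several transcripts by a model, so these shares are estimates.

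A transcript of Slco1c1 that is annotated for nonsense-mediated decay, the pathway that degrades messages with an early stop, took a larger share in MRL-IRAK4-KD mice. Slco1c1-202 (2680 bases) held 28.0%, 34.0%, 32.3% and 36.1% of the Slco1c1 counts in the 4 MRL-IRAK4-KD libraries. It held 24.4%, 15.5%, 21.1% and 18.3% in MRL, 17.7%, 10.7% and 20.3% in C57BL/6 and 17.1%, 23.3% and 19.2% in IRAK4-KD libraries. All 4 MRL-IRAK4-KD libraries lay above the other 10, and this was picked out after the values were seen and has no test. Slc2a1-204 (2241 bases), with the same annotation, held 1.32%, 9.25%, 7.83% and 6.39% of Slc2a1 counts in MRL, 11.6%, 4.34%, 0% and 0% in MRL-IRAK4-KD, 7.48%, 18.4% and 16.4% in C57BL/6 and 0% in all 3 IRAK4-KD libraries. Within the MRL-IRAK4-KD group the share of Slc2a1-204 thus ran from 0% to 11.6%. The part of the estimate in these differences between libraries and groups was not tested.

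**Figure D5:**
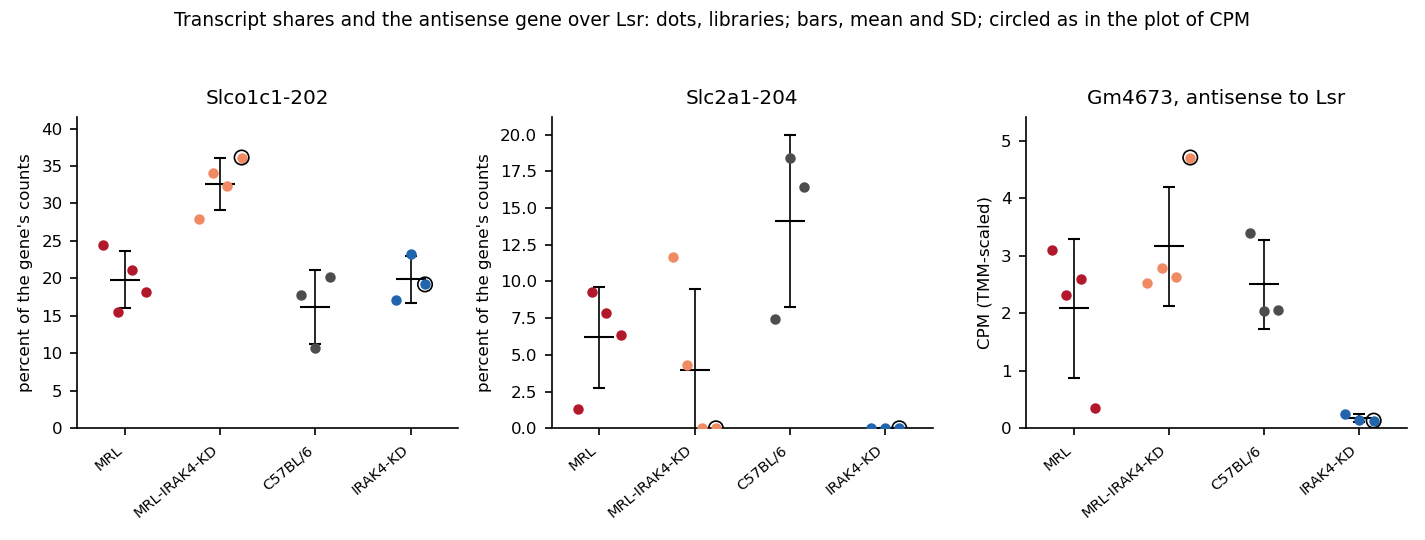
Share of the gene's counts held by Slco1c1-202 and by Slc2a1-204 (percent), and CPM of Gm4673, the antisense gene over Lsr, in each library by group, with libraries circled as in the plot of CPM. Slco1c1-202 was between 28.0% and 36.1% in MRL-IRAK4-KD and at 24.4% or less in the other libraries, and Gm4673 was at 0.255 CPM or less in IRAK4-KD libraries.

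Lsr overlaps Gm4673, a gene annotated on the opposite strand across the end of Lsr, and whether counting used strand is not given in the sources used here. Gm4673 had 52.9% as many counts as Lsr over all libraries, so that reads of the overlap could belong to either. Gm4673 had 3.10, 2.32, 2.60 and 0.345 CPM in MRL libraries, 2.53, 2.78, 2.63 and 4.71 in MRL-IRAK4-KD, 3.40, 2.05 and 2.06 in C57BL/6 and 0.255, 0.145 and 0.133 in IRAK4-KD libraries. It was low in the 3 IRAK4-KD libraries and in MRL replicate 4, the library with the highest Lsr. Summed over both genes, which is an alternative chosen after the values were seen, MRL libraries had 7.88, 6.56, 6.997 and 8.85 CPM, MRL-IRAK4-KD 6.38, 6.36, 5.32 and 8.86, C57BL/6 6.30, 5.27 and 4.86 and IRAK4-KD 2.92, 2.68 and 1.71 CPM. On the sum the MRL and MRL-IRAK4-KD groups overlapped (log2 difference 0.18, exact permutation p = 0.343), unlike on Lsr alone. IRAK4-KD lay below C57BL/6 by -1.16 (exact permutation p = 0.1) and MRL-IRAK4-KD above IRAK4-KD by 1.44 (exact permutation p = 0.0571). In edgeR, Gm4673 itself was lower in IRAK4-KD than in C57BL/6 mice (log2 fold change -3.82 ± 0.62 (SE), adjusted p = 0.0236) and higher in MRL-IRAK4-KD than in IRAK4-KD mice (4.15 ± 0.62, adjusted p = 0.0184).

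The likeness of the members' profiles is given as a description, since the libraries share groups and cell content. Over 14 libraries the 45 pairs of members had a median Pearson r of 0.59, from -0.54 (Tjp1 with Mfsd2a) to 0.92 (Abcb1a with Abcg2). Without MRL-IRAK4-KD replicate 4 the median was 0.76, from 0.30 to 0.96 over 13 libraries. The genes with the most similar profile were Mmrn2 for Lsr (r = 0.98), Nos3 for Abcg2 (r = 0.98), Ptprb for Abcb1a (r = 0.97), Irf7 for Slc2a1 (r = 0.94), Fgd2 for Slco1c1 (r = 0.93) and Id1 for Cldn5 (r = 0.94). Nos3, Ptprb and Mmrn2 are themselves genes of endothelial cells, and Irf7 encodes a transcription factor of the interferon response. For Tjp1, Cdh5 and Ocln, where MRL-IRAK4-KD replicate 4 lay far out, the nearest genes were Dock1 (r = 0.99), Cep170b (r = 0.98) and Ikzf1 (r = 0.96), and Mfsd2a was nearest to Prodh (r = 0.94).

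Promoter windows of RefSeq, from 250 bases before to 50 bases after the start, were found for 9 of the 10 members, in 12 windows, with no entry for Cdh5. A GC box (GGGCGG on either strand) was present in windows of Cldn5, Slc2a1, Abcg2, Lsr, Tjp1 and Ocln, and 35.7% of 32851 windows of the genome hold one. The TCF/LEF core CTTTGA, the letters bound by the factors of Wnt signalling, was present in windows of Mfsd2a, Abcb1a and Lsr, against 16.003% of all windows. The Abcb1a window lies 92986 bases upstream of the GENCODE start of the gene, where Abcb1a-201 begins, so it is not the window of that transcript. The ETS core CCGGAA was present in windows of Lsr and Ocln, against 14.9%. A match is a description of the letters and not of a bound factor.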

How the data were processed

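Bulk RNA-seq covered the hippocampus of 14 mice in 4 groups. The authors used HISAT2 2.1.0 for alignment to mm10, handled alignments with SAMtools 1.9, counted with StringTie 2.1.0 and used DESeq2 1.30.1 in R 4.0.5, by the submitters' processing notes and the paper's methods. The deposited values are raw counts, whole numbers for each gene and each transcript that were not normalized, and of other deposited columns the library concentration was used. The annotation is not given in the sources used here. Versioned gene identifiers match GENCODE M21, from which symbols and coordinates were taken. Sources differ on the library kit, which is SMART-seq with NexteraXT and single-end reads in the paper and KAPA HyperPrep mRNA in the labels, and the core's sheet lists paired reads. Counts of long transcripts depend on RNA integrity and on the preparation. StringTie derives counts from coverage, and counts are not independent molecules. Totals of 279941472 to 572398312 exceeded the 148569712 to 299836957 reads listed per library, and the cause was not tested. Counts outside Ensembl genes were at most 0.188% of a library and were left out.

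From these counts, 38070 genes whose counts summed to 10 or more entered 1 quasi-likelihood model of the 4 groups in edgeR 4.0.16 under R 4.3.3 (TMM scaling), with Benjamini-Hochberg adjustment. Exact permutation tests were 2-sided on log2(CPM + 0.1). The samples were grouped by their titles, and no pair of libraries held the same counts. TPM used the length of the annotated exons. The members, the 15 gene lists and the tests were chosen with earlier results of these data known. All 10 members were named in every comparison. Of the lists, genes at an adjusted p under 0.05 were named, or else up to 3 with the largest change among those at an unadjusted p under 0.05 and a mean of at least 0.5 CPM. For likeness the 3 genes with the highest Pearson r and at least 1 CPM were taken, and transcripts with at least 5% of their gene's counts. Gm4673 and the share of Slco1c1-202 were chosen after their values were seen. Alternatives were DESeq2 1.42.0, RLE size factors, scaling by library size, limma-voom (limma 3.58.1) with quality weights, other filters, only the 2 groups compared, the replicate number as a block, each library left out, a pseudocount of 1 and Pecam1 as the reference. The fit was tested on simulated data. Python 3.11.15, numpy 2.4.6, pandas 2.3.3, scipy 1.17.1 and matplotlib 3.10.9 were used.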

Additional observations from a re-analysis of the deposited data

Results flagged for a closer look

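Of the 20 groups of 4 libraries checked, those of the 10 members in MRL and in MRL-IRAK4-KD mice, 2 held a library whose gap to the nearest other library exceeded Dixon's 95% critical value as a share of the group's range, and chance gives about 1 in 20 groups. Lsr was at 8.51 CPM in MRL replicate 4, where the other 3 MRL libraries had 4.24 to 4.78 CPM and where its antisense gene Gm4673 was at 0.345 CPM against 2.32 to 3.10 CPM. Cdh5 was at 1.24 CPM in MRL-IRAK4-KD replicate 4, where the other 3 libraries of the group had 6.77 to 7.66 CPM.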

How the results depend on the processing

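Of the members' log2 fold changes under the alternatives, 1175 kept their direction and their side of the threshold, 29 passed it and 36 changed sign. Mfsd2a in MRL against MRL-IRAK4-KD mice (-0.09) was 0.21 with limma-voom and, without MRL-IRAK4-KD replicate 4, 0.19 in DESeq2, 0.19 in edgeR with IRAK4-KD replicate 3 also left out and 0.098 with MRL replicate 4 also left out. In IRAK4-KD against C57BL/6 mice Slc2a1 (-0.05) was 0.0081 without MRL-IRAK4-KD replicate 4 and IRAK4-KD replicate 3. In MRL-IRAK4-KD against IRAK4-KD mice Ocln (-0.02) was 0.078 with limma-voom and 0.015 with the replicate block, and without MRL-IRAK4-KD replicate 4 it was 0.17 in DESeq2, 0.17 with MRL replicate 4 also left out and 0.13 with IRAK4-KD replicate 3 also left out. Tjp1 (-0.29) in these 3 settings was 0.0017, 0.0015 and 0.052, and Mfsd2a (0.38) was -0.022 with limma-voom. Of the interactions without both replicate 4 libraries, Cdh5 (0.42) was -0.11, Abcb1a (0.22) was -0.15 and Abcg2 (0.01) was -0.12. Abcg2 was also -0.00036 with library size only, -0.024 with limma-voom and -0.0065 in DESeq2 without MRL-IRAK4-KD replicate 4. With each library left out in turn, the values that changed sign ran from -0.23 to 0.20 for Mfsd2a in MRL against MRL-IRAK4-KD mice, from -0.060 to 0.11 for Ocln, -0.10 to 0.081 for Tjp1 and -0.13 to 0.0030 for Slc2a1 in IRAK4-KD against C57BL/6 mice, from -0.19 to 0.17 for Ocln and -0.46 to 0.0015 for Tjp1 in MRL-IRAK4-KD against IRAK4-KD mice, and from -0.049 to 0.42 for Lsr and -0.090 to 0.14 for Abcg2 in the interaction. The cause was not tested.

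The number of members past the threshold, 0 in every comparison in edgeR, depended on the tool and on a few libraries. The share of all tested genes called in the same setting is in brackets. In MRL against MRL-IRAK4-KD mice the number was 2 with DESeq2 (1.05%) and 1 with limma-voom (0.609%). It was 4 with DESeq2 without MRL-IRAK4-KD replicate 4 (1.19%). In MRL against C57BL/6 mice it was 1 with DESeq2 (0.539%), 1 with limma-voom (0.176%) and 6 with DESeq2 without MRL-IRAK4-KD replicate 4 (1.93%). In edgeR it was 1 without that library and IRAK4-KD replicate 3 (0.0534%) and 1 without that library and MRL replicate 4 (0.048%). In IRAK4-KD against C57BL/6 mice it was 1 with DESeq2 (0.43%) and 1 with only the 2 groups in the fit (0.272%). It was also 1 with DESeq2 without MRL-IRAK4-KD replicate 4 (1.03%) and 1 in edgeR without both replicate 4 libraries (0.299%). At an unadjusted p under 0.05 there were 5 with only the 2 groups, where 2350 of 34876 genes reached it. In MRL-IRAK4-KD against IRAK4-KD mice the number past the adjusted threshold was 1 with DESeq2 (0.81%) and 1 with limma-voom (0.699%). It was 2 with DESeq2 without MRL-IRAK4-KD replicate 4 (1.32%) and 1 in edgeR without both replicate 4 libraries (0.235%). Relative to Pecam1 alone, 0 members separated MRL from C57BL/6 and 3 separated IRAK4-KD from C57BL/6 libraries, against 67.2% and 30.8% of all genes.

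With each library left out in turn, the members past the threshold were 0 to 1 in MRL against C57BL/6 mice and 0 to 0 elsewhere. The 1 was found without MRL-IRAK4-KD replicate 4, beside 0.0555% of all genes. Members at an unadjusted p under 0.05 were 4 to 8, 4 to 9, 1 to 4, 3 to 6 and 0 to 2 in the 4 comparisons, in the order of the report, and the interaction. With all libraries 11.4%, 5.55%, 3.8%, 8.63% and 4.17% of all genes were under it, in either direction. Members without overlap on CPM were 6 to 7, 6 to 7, 5 to 7 and 4 to 6, and relative to the endothelial list 0 to 2, 3 to 4, 5 to 7 and 3 to 4. With all libraries the shares of all genes were 5.26%, 9.63%, 11.2% and 8.74% on CPM. Relative to the list they were 50.4%, 79.3%, 65.0% and 55.4%. Over all genes DESeq2 called 397, 203, 162, 305 and 60 genes and limma-voom 232, 67, 145, 266 and 24, against 37, 0, 56, 28 and 1 in edgeR.

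Same-numbered libraries of different groups deviated with correlations of -0.25 to 0.37. Nothing states whether they shared a litter or a preparation, and with so few libraries per group these correlations cannot decide it. With the replicate block, 1 member, Cldn5, passed in IRAK4-KD against C57BL/6 mice (log2 fold change -1.15, edgeR adjusted p = 0.00529), beside 0.126% of all genes. Also 1, again Cldn5, passed in MRL-IRAK4-KD against IRAK4-KD mice (1.09, edgeR adjusted p = 0.0135), beside 0.0604% of all genes, and 0 passed in the others.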
